A study of Komagataella phaffii GS115 with 3 samples.

Results

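The expression of MXR1, MIT1, PRM1 (also called TRM1) and ROP1, regulators of the methanol genes of the yeast Komagataella phaffii, was followed across 3 RNA-seq libraries. The members were chosen by locus tag, as PAS_chr4_0487 for MXR1, PAS_chr3_0836 for MIT1, PAS_chr4_0203 for PRM1 and PAS_chr3_0554 for ROP1, and all 4 were among the 5040 genes measured. The groups were an hmt-deficient GS115 strain in regular culture, GS115 treated with hydrogen peroxide (H2O2), and GS115 in regular culture without treatment, called untreated here. GS115 is a histidine auxotroph used as an expression host, and all 3 cultures are labelled as GS115 or as hmt-deficient GS115. Whether the hmt-deficient strain kept the histidine auxotrophy is not stated. The labels do not say which gene hmt is or how it was disrupted. The column headers of the deposited values write the strain as Δhmt and say no more about it. The labels state neither the carbon source nor the dose and length of H2O2 treatment. Each group holds 1 library, so differences could not be set against replicates, and culture, treatment and library cannot be told apart. The tables pair no tag with a name or a protein, so the names of these 4 genes were not checked against them, and genes outside the set are given by locus tag alone.

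K. phaffii can live on methanol, which is oxidised by alcohol oxidase in peroxisomes, with H2O2 as a by-product. Alcohol oxidase and the enzymes that handle its product formaldehyde are strongly induced by methanol and repressed by glucose. Mxr1 is a C2H2 zinc finger activator needed for this induction and for the formation of peroxisomes on methanol. Mit1 and Prm1 are activators with a zinc cluster DNA-binding domain, and Prm1 is known to act upstream of Mit1. Rop1 is a zinc finger repressor that binds promoter sequences also bound by Mxr1.

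Levels are in FPKM, fragments scaled to gene length and to the library's fragment total, which can be compared between genes within a library. A lower FPKM is a lower share of the library's fragments and does not give RNA per cell. The fragment totals recovered from the values were 18281744 in the hmt-deficient, 22355577 in the H2O2-treated and 15358148 in the untreated library. Fragments summed over all genes came to 102.0%, 103.1% and 99.3% of these totals in the same order, and what the authors scaled by is not stated. The median gene stood at 68.3, 51.1 and 69.8 FPKM in the same order. All 4 regulators have long coding sequences, from 2667 bases for MIT1 to 3468 bases for MXR1, and each is longer than at least 90.5% of genes. Their lowest value, that of MIT1 after H2O2, rests on 132 fragments, and each of the other 11 values on 1199 or more. All intervals below are exact 95% intervals on recovered fragments and cover counting error only. For ROP1, recovered fragments lay 0.328, 0.456 and 0.227 from a whole number in the hmt-deficient, H2O2-treated and untreated library, more than rounding of the values allows, so the gene length the authors used may differ from the reference one. Its fragment numbers and every interval that involves ROP1 are therefore approximate, while its FPKM and its ratios between libraries do not use the reference length. Its level beside another gene within a library depends on the length the authors used.

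MXR1, the zinc finger activator, stood at 51.1 FPKM in the hmt-deficient library, 16.7 FPKM in the H2O2-treated library and 163 FPKM in the untreated library. Its counting intervals (49.3 to 52.9, 15.8 to 17.7 and 160 to 167 FPKM) do not overlap. It was above 78.1% of genes in untreated GS115, above 37.5% in the hmt-deficient strain and above 14.4% after H2O2.

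MIT1, the zinc cluster activator, stood at 389 FPKM in the hmt-deficient library, 2.21 FPKM in the H2O2-treated library and 441 FPKM in the untreated library. It was therefore abundant in both regular cultures, above 90.5% of genes in the hmt-deficient strain and above 91.3% in untreated GS115. After H2O2 it lay among the least expressed genes of the library, above 42 of the 5040. The interval of that low value was 1.85 to 2.63 FPKM.

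PRM1, the activator upstream of MIT1, stood at 28.7 FPKM in the hmt-deficient library, 23.4 FPKM in the H2O2-treated library and 68.3 FPKM in the untreated library. Untreated GS115 was the high one, close to its median gene, and the other 2 libraries lay near each other. ROP1, the repressor, stood at 55.5 FPKM in the hmt-deficient library, 19.2 FPKM in the H2O2-treated library and 55.0 FPKM in the untreated library. Here the 2 regular cultures matched within counting error on FPKM (53.4 to 57.5 and 52.8 to 57.3), and the H2O2-treated culture was the low one.

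**Figure D1:**
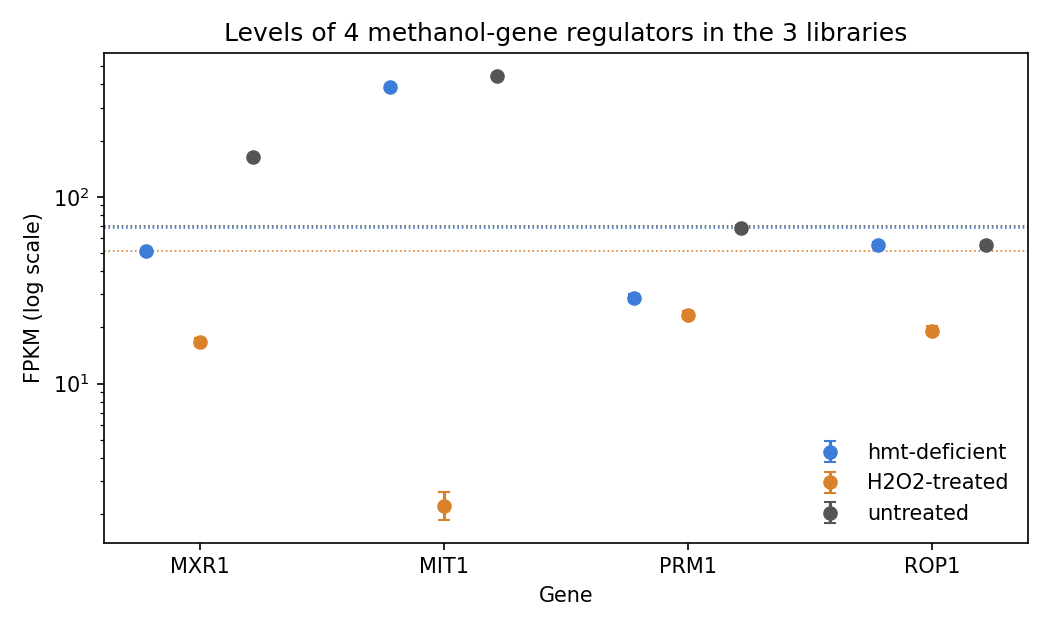
FPKM of each regulator (y axis, log scale) in the hmt-deficient, H2O2-treated and untreated library, with 1 library a group. Bars are exact 95% counting intervals, mostly smaller than the points, and dotted lines mark the median gene of each library; the MIT1 point after H2O2, at 2.21 FPKM, stands far below the other 11.

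The order of the regulators differed between libraries. In untreated GS115 it ran MIT1, MXR1, PRM1, ROP1, and neighbours in this order had counting intervals that do not overlap. In the hmt-deficient strain it ran MIT1, ROP1, MXR1, PRM1, with ROP1 and MXR1 close together (53.4 to 57.5 and 49.3 to 52.9 FPKM). After H2O2 it ran PRM1, ROP1, MXR1, MIT1, and the first 3 lay within 16.7 to 23.4 FPKM. The place of ROP1 beside genes of close level depends on the gene length the authors used for it. MIT1 made up 74.2% of the summed FPKM of the 4 genes in the hmt-deficient library, 3.6% in the H2O2-treated library and 60.6% in the untreated library. The sum itself was 524, 61.6 and 728 FPKM in the same order.

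The first comparison asked how the regulators stood after exposure of GS115 to H2O2. All 4 were lower. MIT1 was 200-fold lower (interval 168 to 238), at 2.21 FPKM treated against 441 FPKM untreated. MXR1 was 9.77-fold lower (9.22 to 10.4). PRM1 was 2.92-fold lower (2.74 to 3.10) and ROP1 2.86-fold lower (2.67 to 3.07). The intervals of PRM1 and ROP1 overlap, so transcripts of an activator and of the repressor were lower by amounts that counting error does not separate.

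Over all genes with at least 10 FPKM in either library of this pair, 25.8% of 4964 were at least 2-fold lower after H2O2 on the scale of log2(FPKM + 1), a scale that understates changes of low genes. All 4 regulators passed that mark and none was 2-fold higher. With ratios centred on their median 743 of the 4964 genes were at least 2-fold lower in place of 1283, and all 4 regulators still passed. The median log2 ratio was -2.36 for the 4 regulators and -0.38 for all genes tested. Relative to that shift of all genes, and on the same scale, the log2 ratios were -6.72 for MIT1, -2.83 for MXR1, -1.12 for PRM1 and -1.09 for ROP1. MIT1 had 6 genes below it, and 108 genes lay below MXR1. For PRM1 and ROP1 624 and 655 genes had a lower ratio, so both lay well inside the range of other transcripts.

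Long genes were lower in the H2O2-treated library in general, and all 4 regulators fall in the longest 20% of genes. The median log2 ratio of the longest 20% was -0.65, and 31.2% of its 993 genes were at least 2-fold lower. MIT1 had the lowest ratio of these 993 genes, and 10 genes lay below MXR1. Below PRM1 and ROP1 lay 119 and 129 of them. The part that gene length has in these ratios was not tested.

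**Figure D2:**
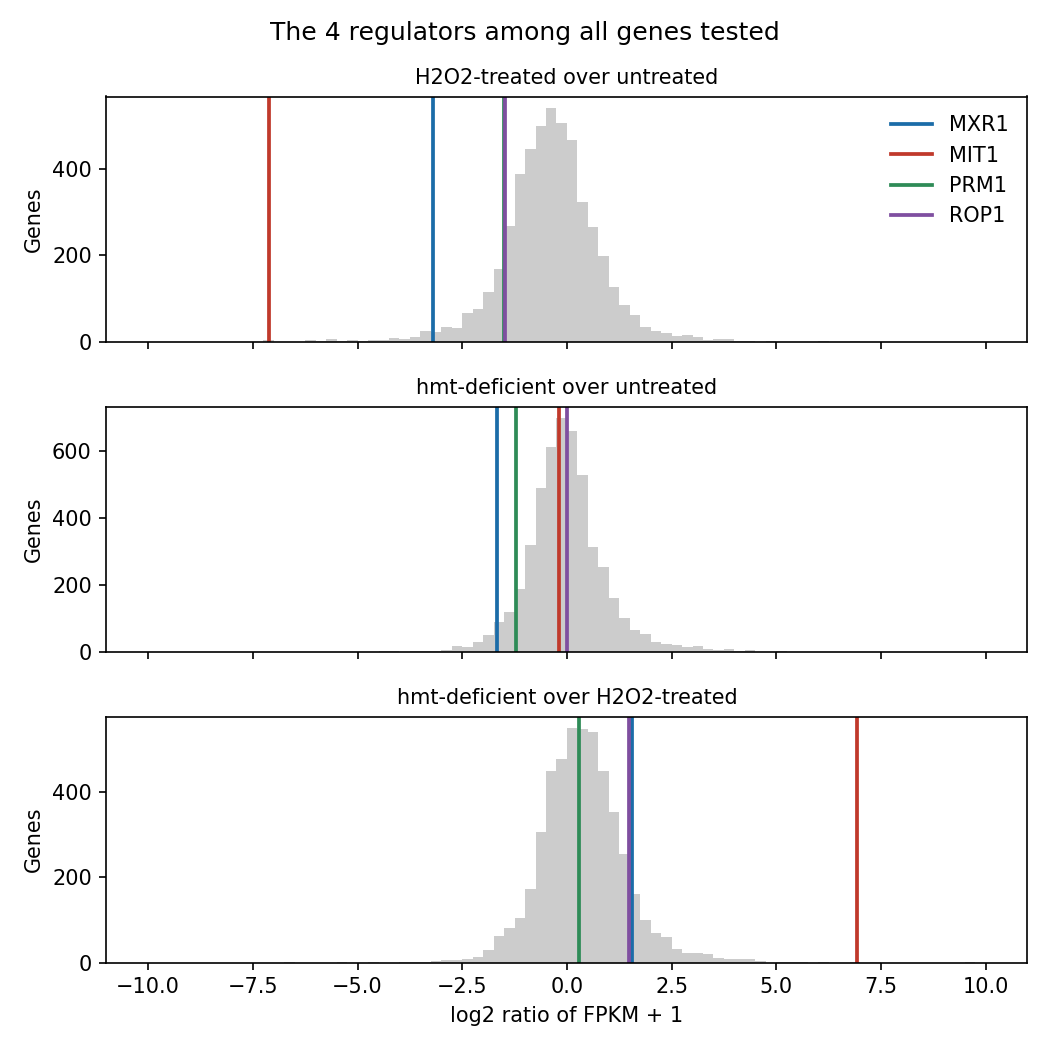
Number of genes (y axis) by log2 ratio of FPKM + 1 (x axis, bins of 0.25) for each pair of libraries, with coloured lines at the 4 regulators. After H2O2 all 4 lines lie left of 0, MIT1 at -7.11; in the hmt-deficient strain MXR1 and PRM1 lie to the left while MIT1 and ROP1 lie near 0; between the hmt-deficient and H2O2-treated libraries MIT1 lies at 6.92.

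The second comparison was between the hmt-deficient strain and untreated GS115, both in regular culture. MXR1 was 3.20-fold lower (3.07 to 3.33), at 51.1 FPKM against 163 FPKM. PRM1 was 2.38-fold lower (2.24 to 2.53), at 28.7 FPKM against 68.3 FPKM. MIT1 was 1.14-fold lower (1.11 to 1.16), a small difference that exceeds counting error on FPKM but has no replicate to be set against. Its size depends on the scaling. The log2 ratio was -0.18 on FPKM, -0.12 relative to the median of all genes, and -0.06 on TPM, FPKM rescaled to the same sum in each library. ROP1 stood at 1.01 times its untreated level (0.954 to 1.06), an interval that holds 1. On TPM its log2 ratio was 0.13, above the interval of -0.07 to 0.09 on FPKM, so the match depends on the scaling.

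In this pair 11.0% of 4992 genes were at least 2-fold lower, and the regulators past that mark were MXR1 and PRM1. The median log2 ratio was -0.70 for the 4 regulators and -0.07 for all genes tested. MXR1 had 183 genes with a lower ratio and PRM1 382. MIT1 and ROP1 lay in the middle of all genes, with 2176 and 2706 below them. Among the longest 20% of genes the median log2 ratio was 0.11 and 5.5% of 999 were at least 2-fold lower. Of these long genes, 13 lay below MXR1 and 37 below PRM1. The part of gene length was not tested here either.

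The third comparison left out the untreated library, and the hmt-deficient strain and H2O2-treated GS115 differ in strain and treatment together. In the hmt-deficient strain, MIT1 was 176-fold higher (148 to 210), at 389 FPKM against 2.21 FPKM. MXR1 was 3.06-fold higher (2.87 to 3.26) and ROP1 2.89-fold higher (2.70 to 3.09). PRM1 was 1.23-fold higher (1.14 to 1.32). On the scale of log2(FPKM + 1) its log2 ratio was -0.06 relative to the median of all genes, so its direction depends on the scaling.

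In this pair 23.0% of 4966 genes were at least 2-fold higher in the hmt-deficient library, as were 3 of the 4 regulators, all but PRM1. With ratios centred on their median 697 of the 4966 genes were at least 2-fold higher in place of 1143, and these 3 regulators still passed. The median log2 ratio was 1.52 for the 4 regulators and 0.34 for all genes tested. For MIT1 2 genes had a higher ratio, for MXR1 501 and for ROP1 559. The longest 20% had a median of 0.74, and 34.7% of its 993 genes were at least 2-fold higher. Of the longest 20%, 130 genes lay above MXR1, 151 above ROP1 and 0 above MIT1.

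The 2 comparisons with untreated GS115 share that library, and their values are set side by side only. MXR1 and PRM1 were at least 2-fold lower in both, 3.20-fold and 2.38-fold in the hmt-deficient strain beside 9.77-fold and 2.92-fold after H2O2. MIT1 and ROP1 were at least 2-fold lower after H2O2 but not in the hmt-deficient strain. The pair without the untreated library gives the direct difference between these conditions. It was large for MIT1, about 3-fold for MXR1 and ROP1, and slight for PRM1. Its FPKM ratios follow from the other 2 comparisons and rest on the same libraries, so they are no further evidence.

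Ratios between regulators within a library do not depend on how libraries are scaled against each other. MXR1 over ROP1, activator over repressor, was 0.921 in the hmt-deficient library (0.876 to 0.969), 0.870 in the H2O2-treated library (0.804 to 0.942) and 2.97 in the untreated library (2.84 to 3.11). The activator thus exceeded the repressor about 3-fold in untreated GS115 and lay slightly below it in both other cultures, whose intervals overlap. The size of every ratio to ROP1 depends on the gene length the authors used for ROP1, which may differ from the reference one. Whether MXR1 truly lay below ROP1 in these cultures is therefore not settled. The change of such a ratio between libraries does not depend on that length.

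PRM1 over ROP1 was 0.518 in the hmt-deficient library (0.486 to 0.551), 1.22 in the H2O2-treated library (1.13 to 1.32) and 1.24 in the untreated library (1.18 to 1.31). Here the H2O2-treated and untreated libraries overlap and the hmt-deficient one is low. MIT1 over ROP1 was 7.01 in the hmt-deficient library (6.74 to 7.30), 0.115 in the H2O2-treated library (0.0956 to 0.138) and 8.03 in the untreated library (7.69 to 8.38). For MIT1 the H2O2-treated library is the low one, and the others differ little.

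Among the activators, MIT1 over MXR1 was 7.61 in the hmt-deficient library (7.33 to 7.90), 0.132 in the H2O2-treated library (0.110 to 0.159) and 2.70 in the untreated library (2.63 to 2.77). MXR1 over PRM1 was 1.78 in the hmt-deficient library (1.67 to 1.89), 0.714 in the H2O2-treated library (0.662 to 0.769) and 2.39 in the untreated library (2.30 to 2.49). MIT1 over PRM1 was 13.6 in the hmt-deficient library (12.9 to 14.3), 0.0944 in the H2O2-treated library (0.0785 to 0.113) and 6.46 in the untreated library (6.22 to 6.72). No pair of regulators kept the same ratio in all 3 libraries.

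**Figure D3:**
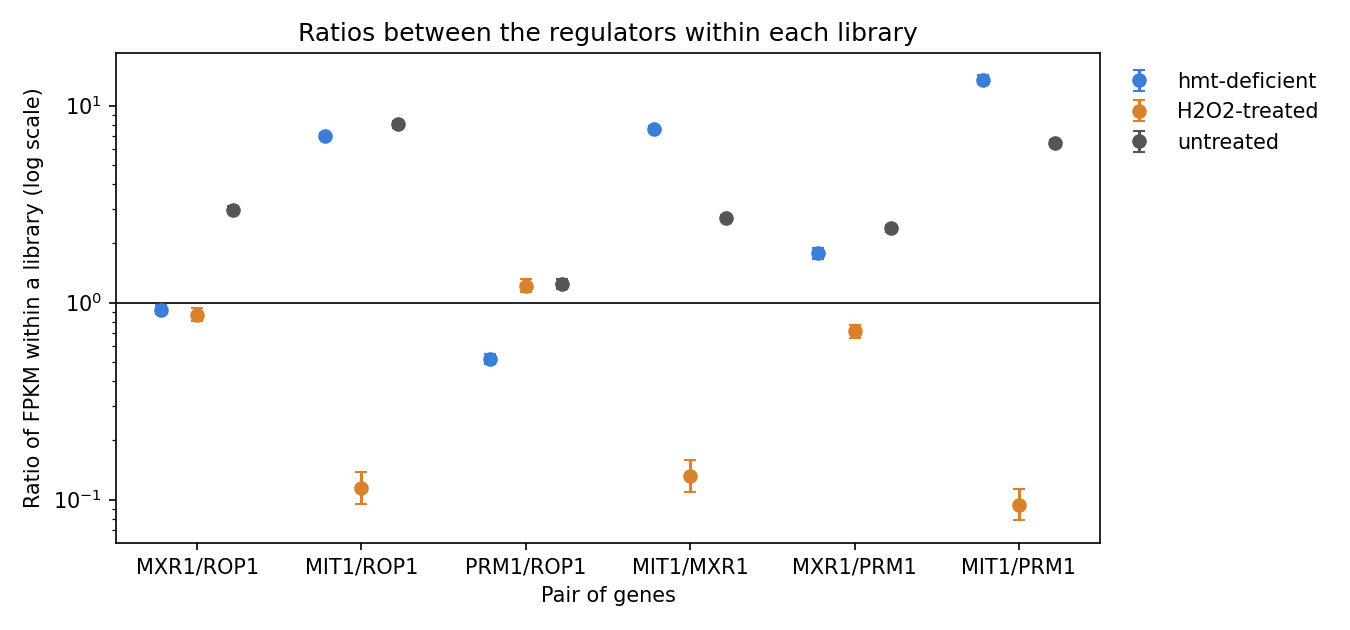
FPKM of one regulator over another within the same library (y axis, log scale; the line marks equal levels) for 6 pairs in the hmt-deficient, H2O2-treated and untreated library. Bars are exact 95% counting intervals; the 3 ratios with MIT1 on top lie between 0.0944 and 0.132 after H2O2 and above 2 in the other libraries.

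Genes with the most similar pattern were found by the Euclidean distance between log2(FPKM + 1) values, centred on each gene, over the 3 libraries, among 4998 genes with at least 10 FPKM in any of them. With 3 values a gene, many genes lie close together, and the distances are a description. They were not scaled for the size of the change, so a gene with an extreme ratio has few genes near it. The number of near genes therefore partly restates the ratios given above. MIT1 had no close match. Its nearest gene was PAS_chr1-1_0118 at a distance of 1.49 log2 units, with 3022 FPKM in the hmt-deficient, 80.7 FPKM in the H2O2-treated and 2959 FPKM in the untreated library. It shares the low value after H2O2 at a far higher level. The others were PAS_chr2-2_0113, PAS_chr4_0783, PAS_chr1-4_0538 and PAS_chr1-1_0108, at distances of 1.82 to 1.93.

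MXR1 had 42 genes within 0.5 log2 units. The nearest was PAS_chr2-1_0047, at a distance of 0.04, with 75.6 FPKM in the hmt-deficient, 24.1 FPKM in the H2O2-treated and 233 FPKM in the untreated library. PAS_FragB_0023, PAS_chr2-1_0782, PAS_chr4_0794 and PAS_chr2-1_0854 followed at 0.11 to 0.16.

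The patterns of PRM1 and ROP1 were common ones, with 383 and 579 genes within 0.5 log2 units. Nearest to PRM1 were PAS_chr2-1_0706, PAS_chr2-2_0084, PAS_chr4_0249, PAS_FragB_0043 and PAS_chr4_0715, at 0.01 to 0.04. Nearest to ROP1 were PAS_chr1-4_0549, PAS_chr3_1053, PAS_chr4_0175, PAS_chr1-4_0073 and PAS_chr2-1_0780, at 0.01 to 0.04. The regulators were not among each other's nearest genes. Their closest pair was PRM1 and ROP1 at 0.99, with 1907 genes nearer to PRM1 than ROP1 is. MIT1 lay at 3.92 from MXR1, 4.52 from ROP1 and 5.05 from PRM1.

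The 3 genes on either side of each regulator in the reference gene order were read beside it. Of these 24 neighbours, 9 (37.5%) were at least 2-fold lower after H2O2 and 0 higher, where 25.8% of all genes tested were lower and 8.88% higher. In the hmt-deficient strain 3 (12.5%) were at least 2-fold lower than untreated and 1 (4.2%) higher, where 11.0% and 11.1% of all genes were, so the share of lower neighbours was near that of all genes. Between the hmt-deficient and H2O2-treated libraries, 8 (33.3%) were at least 2-fold higher in the first, beside 23.0% of all genes.

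Around MIT1, the lower genes lay on one side. PAS_chr3_0834, next to it, stood at 119 FPKM in the hmt-deficient, 15.3 FPKM in the H2O2-treated and 107 FPKM in the untreated library, 6.99-fold lower after H2O2. PAS_chr3_0833 stood at 100.2, 9.57 and 43.3 FPKM in the same order, and PAS_chr3_0832 at 107, 36.1 and 95.6 FPKM. Both were also at least 2-fold lower after H2O2, and in the hmt-deficient library PAS_chr3_0833 stood 2.31-fold above its untreated level.

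On the other side PAS_chr3_0837 stood at 578 FPKM in the hmt-deficient, 878 FPKM in the H2O2-treated and 1041 FPKM in the untreated library. The next genes, PAS_chr3_0838 and PAS_chr3_0839, had log2 ratios of 0.41 and 0.23 after H2O2. The low level of MIT1 after H2O2 thus had no counterpart of its size among the 6 neighbours, and those on this side did not reach 2-fold.

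Next to MXR1, PAS_chr4_0488 stood at 272 FPKM in the hmt-deficient, 86.0 FPKM in the H2O2-treated and 472 FPKM in the untreated library. Its libraries ran in the same order as those of MXR1, with a level 5.49-fold lower after H2O2 and 1.74-fold lower in the hmt-deficient strain. The gene on the other side, PAS_chr4_0486, was highest in the hmt-deficient strain, at 77.6 FPKM against 59.6 FPKM after H2O2 and 42.0 FPKM untreated. The outer neighbours PAS_chr4_0483, PAS_chr4_0484, PAS_chr4_0489 and PAS_chr4_0490 did not reach 2-fold in either comparison with untreated GS115.

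PRM1 lay between 2 genes that were also lower after H2O2. PAS_chr4_0202 stood at 62.8 FPKM in the hmt-deficient, 28.3 FPKM in the H2O2-treated and 119 FPKM in the untreated library. PAS_chr4_0204 stood at 30.2, 33.1 and 82.2 FPKM in the same order, a pattern like that of PRM1. PAS_chr4_0201 was 4.01-fold lower after H2O2 and 2.02-fold lower in the hmt-deficient strain. PAS_chr4_0925, PAS_chr4_0205 and PAS_chr4_0206 did not reach 2-fold in either.

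ROP1 likewise had a lower gene on each side after H2O2. PAS_chr3_0553 stood at 144 FPKM in the hmt-deficient, 36.8 FPKM in the H2O2-treated and 145 FPKM in the untreated library. PAS_chr3_0557 stood at 35.8, 17.1 and 37.8 FPKM in the same order. Both, like ROP1, were near their untreated level in the hmt-deficient strain. PAS_chr3_0552 was 3.02-fold lower in the hmt-deficient strain than untreated, while PAS_chr3_1199, PAS_chr3_0558 and PAS_chr3_0559 did not reach 2-fold in either comparison with untreated GS115.

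**Figure D4:**
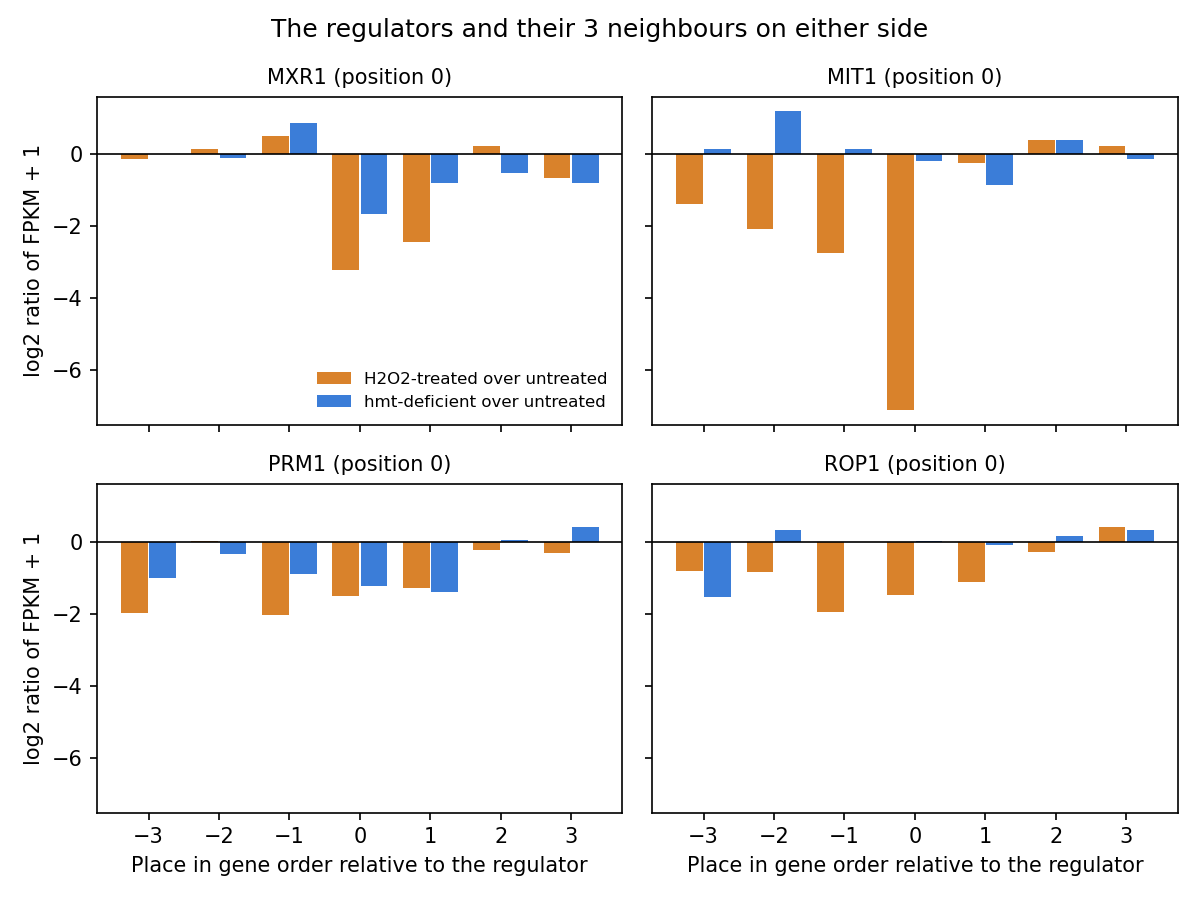
log2 ratio of FPKM + 1 (y axis) for each regulator at position 0 and the 3 genes on either side in the reference gene order (x axis), for H2O2-treated over untreated and hmt-deficient over untreated. The MIT1 bar after H2O2 reaches -7.11 while its neighbours lie between -2.73 and 0.41.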

How the data were processed

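RNA was sequenced from 3 cultures, 1 library a group. Per the labels' protocols, total RNA was depleted of ribosomal RNA and sequenced as paired-end reads. FPKM values per gene were deposited by the authors, as named per the file headers. Tools listed in the submitters' processing notes are HISAT2, HTSeq, featureCounts, Trimmomatic 0.39 and FastQC 0.12.1. Genome build and annotation: not given in the sources used here. A normalized signal column deposited by the authors for the other 2 libraries equalled FPKM after H2O2 and was 1.14 times FPKM in the hmt-deficient library; it served as an alternative. All 5040 tags matched the RefSeq gene table of assembly ASM2700v1, used for length and gene order.

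Totals were fitted so that FPKM times coding length gave whole fragments, within 0.1 for 94.7% of 457 checkable genes (hmt-deficient), 94.5% of 292 (H2O2-treated) and 96.8% of 3557 (untreated). This was checked on simulated data. In the untreated library, ROP1 came out 0.227 from a whole number, so the authors' gene length for it may differ from the reference, and the other regulators came within 0.001. Intervals on ratios are exact (SciPy 1.17.1, Python 3.11.15). With 1 library a group no test was made. Genes with at least 10 FPKM in either library of a pair were counted at 2-fold on log2(FPKM + 1). Named genes were the 4 regulators, the 5 nearest patterns and the 3 neighbours on either side of each. Planned lists of zinc finger and methanol pathway genes were not used here, since the tables give no proteins or products. The members and rules were chosen with earlier results of these data known.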

Additional observations from a re-analysis of the deposited data

How the results depend on the processing

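Among 80 values under other settings, 48 kept their place, 31 shifted and 1 reversed. A ratio counted as shifted outside its counting interval, and a number of genes beyond 1.5 times. Dividing by the median ratio removes the shift of all genes by construction. That median was taken on the scale of log2(FPKM + 1), while the ratios divided were of plain FPKM. After H2O2 the division gave log2 ratios of -2.90 for MXR1, -7.26 for MIT1, -1.16 for PRM1 and -1.13 for ROP1. For the hmt-deficient strain against untreated it gave -1.61 for MXR1 and -0.12 for MIT1, and against H2O2-treated 1.27 for MXR1, 7.12 for MIT1, 1.19 for ROP1 and -0.05 for PRM1, a change of sign. TPM gave -1.55 for MXR1, -0.06 for MIT1, -1.13 for PRM1 and 0.13 for ROP1 in the hmt-deficient strain against untreated. Against H2O2-treated, TPM gave 1.81 for MXR1, 0.49 for PRM1 and 1.72 for ROP1. The authors' normalized columns gave the same values. Their factor of 1.14 is close to the ratio of the summed FPKM, 1070995 after H2O2 over 935377 in the hmt-deficient library. The 2 settings are therefore nearly the same rescaling, although both are counted among the 80 values. A pseudocount of 1 gave MIT1 -7.11 after H2O2 and 6.92 for hmt-deficient against H2O2-treated, and within the H2O2-treated library 0.159 over ROP1, 0.181 over MXR1 and 0.131 over PRM1. At 4-fold, 342 genes were lower after H2O2, 100 lower in the hmt-deficient strain, and 275 higher in it than after H2O2. Centring gave 743 lower after H2O2 and 697 higher in the hmt-deficient than in the H2O2-treated library, and a minimum of 50 FPKM 743 for the last. With a pseudocount of 0.1, 3 of the 5 genes nearest to MIT1 were the same. No paired analysis was possible because each group holds 1 library, and no library could be left out. The normalized signal was not set against the untreated library, which has none.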
